A study of Rattus norvegicus with 31 samples.

Results

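Perivascular fat taken above the position of an aortic ligature was compared with brown fat of sham-operated rats, a comparison that rests on 9 of the 31 RNA libraries of the series. The members were the 5 count columns of sham fat from above the ligature (sham above) and the 4 count columns of sham brown adipose tissue (sham BAT), found by the group letters of the sample titles. Numbers in the titles run over 20, 22, 24, 26 and 28 in sham above and over 20, 22, 24 and 26 in sham BAT, and values per library are given in that order below. The numbers name libraries, and no source used here states that a number is 1 rat or how brown fat was sampled.

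The series studies perivascular adipose tissue (PVAT), the fat that wraps the thoracic aorta, in male Sprague-Dawley rats (strain ontology SD/Rij) aged 10 to 15 weeks, with a stated time point of 15 weeks, on a chow diet. In coarcted rats a silk ligature narrowed the descending thoracic aorta. In all sham rats the same operation was done through the chest wall but the ligature was left loose, so every library of both sham groups came from an operated animal and none from an unoperated one. The stated time after surgery was 4 weeks. RNA had a stated integrity number of at least 7.5 and was sequenced in bulk, so fewer cells of a type and less RNA per cell cannot be told apart in any difference below.

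Brown adipocytes burn fatty acids in mitochondria that carry the uncoupling protein Ucp1, which lets protons flow back across the inner membrane and releases heat. Fat around the thoracic aorta of rodents resembles brown fat in its many small lipid droplets and its Ucp1, and it also secretes vasoactive factors next to the vessel wall. The fat pads lie in different places and arise from different embryonic cells, and the thoracic aorta runs beside the heart, the great veins and the pleura, whose mesothelium is a thin cell layer marked by mesothelin.

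A small set of transcripts differed between the tissues, many of them by large factors. Of 14190 genes tested with edgeR's quasi-likelihood test, 64 were higher in sham above (0.451% of those tested) and 28 were lower (0.197%) at a Benjamini-Hochberg adjusted p under 0.05, the rule meant by "called" below. At an unadjusted p under 0.05 there were 1152 genes (8.12%). Nothing states that the libraries of a group came from separate rats, so the p-values measure only the spread between these libraries. The median log2 difference over all genes tested, sham above minus sham BAT, was -0.02. Of the called genes, 63 of 64 higher and 22 of 28 lower differed by at least 1 on the log2 scale. The libraries of the groups did not overlap in CPM, a gene's count scaled to a fixed library total, for 63 of the 64 higher genes and for 25 of the 28 lower genes. Over all genes tested, that was the case for 2.23% with sham above on the higher side and for 0.536% with it on the lower side. The exceptions were Cryab, higher, and Pvalb, Actn3 and Fgl2, lower. These genes were called on the same libraries, so a lack of overlap among them was largely fixed in advance and adds no support. The members of the higher set that moved furthest were heart muscle and mesothelial genes, and those of the lower set were developmental transcription factors and fast skeletal muscle genes.

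**Figure D1:**
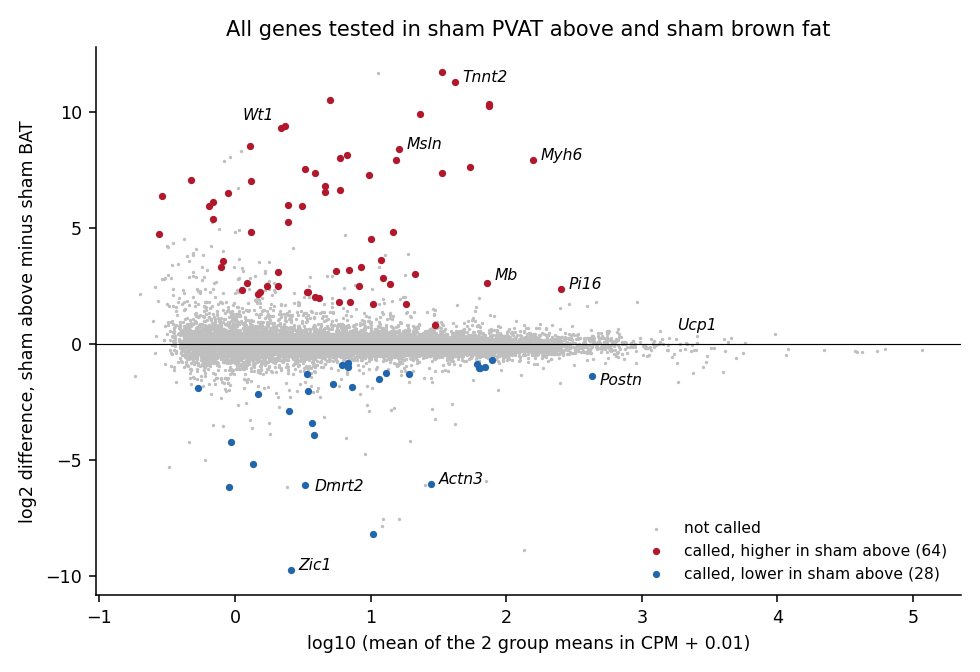
Log2 difference, sham above minus sham BAT, of each of the 14190 genes tested (vertical axis) against the log10 of the mean of the group means in CPM plus 0.01 (horizontal axis), with 64 called higher genes in red and 28 called lower genes in blue. The called genes of large difference, such as Tnnt2 and Zic1, lie at low to middle levels, and the abundant Ucp1 lies near 0.

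Total counts were 17749979 to 19345593 in the sham above libraries and 17112122 to 26530733 in the sham BAT libraries. On principal components of log2 CPM over the 14 sham libraries, the second component (17% of the variance) was positive in all 5 sham above libraries, at 18.5 to 38.4, and negative in all 4 sham BAT libraries, at -61.9 to -22.6. Sham above replicate 20 stood apart on the first component, at -72.0 against 19.2 to 31.4 in the other 4, and without it 75 genes were higher and 22 lower. Sham BAT replicate 22 had the highest summed CPM of the groups for fibroblast, macrophage and Schwann cell genes, and without it 76 genes were higher and 24 lower. Reads of mitochondrial 12S ribosomal RNA split the libraries into 2 kinds, many (3445 to 7253 CPM) in sham above 20 and 26 and sham BAT 20 and 24, and few (46.0 to 79.0 CPM) in the others, and this split crosses the groups. Within the libraries with few such reads 39 genes were higher and 9 lower, and within the 4 with many, 0 were higher and 1 lower. All called genes that could be tested within each kind (60 of the 64 higher genes within the kind with many reads, 64 within the kind with few, and all 28 lower genes within both) kept their direction. These genes were called on the same libraries, so a kept direction was largely fixed in advance and adds no support.

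Heart muscle genes gave the largest differences. Of 22 members of the cardiac muscle list that could be tested, 13 were called higher in sham above and 0 lower, and all 22 had a fitted difference above 0. The list's median log2 difference was 7.91, or 7.54 with the genes that had no count in sham BAT set at their lower bound, against -0.02 over all genes. Summed over the list, sham above had 54.6, 1112, 983, 1131 and 2356 CPM, against 11.7, 21.6, 11.7 and 5.01 CPM in sham BAT. The groups did not overlap, and sham above replicate 20 was far below the other 4 sham above libraries.

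Myh6, which encodes the alpha heavy chain of heart myosin, had 6.20, 353, 228, 286 and 706 CPM in sham above, against 0.468, 3.32, 0.228 and 0.775 CPM in sham BAT. The log2 difference was 7.93 ± 1.34 (SE), with an adjusted p of 0.00805. Actc1, the cardiac alpha actin, had 9.05, 143, 123, 143 and 329 CPM in sham above, against 0, 0.264, 0.114 and 0 CPM in sham BAT. Replicate 20 was the lowest of the sham above libraries for both genes and replicate 28 the highest, and the groups did not overlap.

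Tnnt2, the cardiac troponin T that ties the troponin complex to tropomyosin, had 3.62, 89.3, 90.8, 75.7 and 157 CPM in sham above, against 0, 0.0377, 0 and 0.0516 CPM in sham BAT. The ratio of counts per total, sham above over sham BAT, was 3339 with a 95% exact binomial interval of 924 to 27573 for counting error only. Copies of a molecule made by PCR cannot be set apart without molecular tags, so such intervals are too narrow. Without sham above replicate 20 the fitted log2 difference of Tnnt2 was 11.62 (adjusted p 6.79e-09) and that of Myh6 was 8.24 (adjusted p 0.000598), against 11.31 and 7.93 with it. Without sham BAT replicate 22 that of Myh6 was 9.07 (adjusted p 0.0201). Tnni3, the inhibitory subunit of the same complex, had 4.34 to 117 CPM in sham above and 1 counted library in sham BAT, at 0.0377 CPM.

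Atrial light chains of myosin were among these genes. In sham above the mean of Myl7 was 150 ± 107 CPM (SD, n = 5), against 0.106 ± 0.0976 CPM in sham BAT (SD, n = 4). Myl4 averaged 67.1 ± 53.1 CPM in sham above and 0.365 ± 0.264 CPM in sham BAT, and later values with ± in CPM are likewise means with SD over 5 and 4 libraries. Myl7 is typical of the atria, and Myl4 is the atrial form of the essential light chain in adults. Nppa, the gene of atrial natriuretic peptide, was too low to be tested: it had 0, 0.338, 3.36, 0.112 and 0.745 CPM in sham above and 0.0584 CPM in 1 sham BAT library, with 0 in the other 3.

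Among calcium handling genes of heart muscle, sham above replicate 20 was again the lowest of its group and replicate 28 the highest. Ryr2, the calcium release channel of the heart's sarcoplasmic reticulum, had 0.775, 30.7, 28.7, 40.5 and 52.4 CPM in sham above, against 0, 0.189, 0.114 and 0.103 CPM in sham BAT (log2 difference 7.97 ± 1.28 SE, adjusted p 0.00557). Pln, the phospholamban that restrains the calcium pump, had 3.88, 25.5, 29.8, 19.9 and 31.5 CPM in sham above, against 1.23, 2.71, 0.685 and 2.01 CPM in sham BAT. Casq2, the calcium buffer calsequestrin, had 3.72 to 42.8 CPM in sham above and 2.58 to 3.32 CPM in sham BAT, and its call was lost when any single sham BAT library was left out. Pln and Casq2 were the only 2 called members of the smooth muscle list, whose median difference was 0.11 over 25 members. Sln, the sarcolipin of atria, had 1.499, 19.2, 27.6, 22.4 and 43.4 CPM in sham above and 0 counts in all 4 sham BAT libraries, but its adjusted p was 0.0994.

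Other sarcomere genes of heart muscle were called as well. Ankrd1, a stress-responsive sarcomere protein, averaged 107 ± 80.5 CPM in sham above and 0.483 ± 0.168 CPM in sham BAT (log2 difference 7.67 ± 0.93 SE, adjusted p 0.000484). Mybpc3, the cardiac myosin-binding protein C, averaged 46.3 CPM in sham above and had at most 0.0584 CPM in sham BAT. Mybphl, a related protein, had 0.259 to 21.6 CPM in sham above and no count in sham BAT, at least 268.6-fold higher against a floor of 3 counts over the group. Outside the list, Dsg2, a desmosome cadherin of heart and epithelia, had 1.09 to 7.40 CPM in sham above and no count in sham BAT, at least 124.2-fold higher. Tnnc1, the troponin C of heart and slow muscle, named after its values were seen, had 2.22 to 51.6 CPM in sham above and 0.526 to 1.48 CPM in sham BAT. Myoz2, a calcineurin-binding sarcomere protein of the list, had 1.03 to 29.6 CPM in sham above and 0.171 CPM in 1 sham BAT library. Cryab, a small heat shock protein abundant in heart and other muscle, had 7.13 to 69.1 CPM in sham above and 1.91 to 9.76 CPM in sham BAT, and the groups overlapped. The calls of Myoz2, Cryab and Tnnc1 were each lost without any one of several libraries, 8 of the 9 for Myoz2, 7 for Cryab and 6 for Tnnc1.

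Fat from below the loose ligature held few of these transcripts, with 6.79 to 28.5 summed CPM of the list over 5 libraries. The 64 higher genes were chosen by values of the same sham above libraries, which raises their share of calls against sham below. In the test of sham above minus sham below, 15 of the 64 higher genes were called, where 0.127% of all genes tested were. They included Tnni3, Tnnt2, Myl7, Actc1, Mybpc3, Ryr2, Myh6, Ankrd1, Myl4, Csrp3, Tnni3k, Mylk3, Pln and Casq2. Csrp3, Tnni3k and Mylk3, a muscle LIM protein, a troponin-interacting kinase and the cardiac kinase of myosin light chain, lay outside the rule for naming genes and were chosen after their values were seen.

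**Figure D2:**
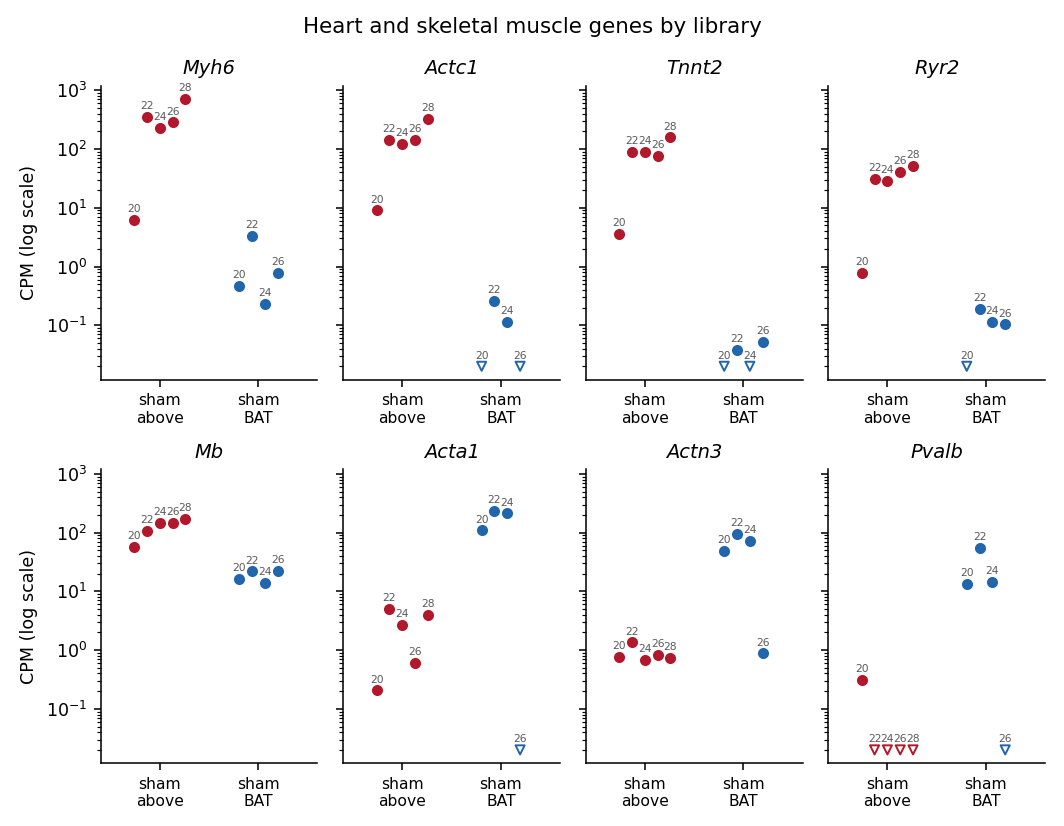
CPM on a log scale of 4 heart genes (upper row) and of Mb and 3 skeletal muscle genes (lower row) in 5 sham above libraries (red, left) and 4 sham BAT libraries (blue, right), each point labelled with its title number and open triangles at the bottom marking libraries with no count. Sham above replicate 20 lies below the other sham above libraries for the heart genes, and sham BAT replicate 26 lies with the sham above libraries for Acta1, Actn3 and Pvalb.

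Skeletal muscle genes ran the other way, but through 3 of the 4 BAT libraries. Summed over the list, sham above had 283, 369, 370, 404 and 453 CPM, against 877, 1787, 1289 and 242 CPM in sham BAT. Replicate 26 of sham BAT was below every sham above library, so the groups overlapped. Of 20 members tested, 19 had a fitted difference below 0 and the median was -4.58, but only Pvalb and Actn3 were called lower and Mb was called higher. Actn3, the alpha actinin of fast fibres, had 0.775, 1.35, 0.673, 0.836 and 0.745 CPM in sham above, against 48.3, 96.6, 72.3 and 0.878 CPM in sham BAT. Pvalb, a calcium buffer of fast fibres, had 0.310 CPM in sham above replicate 20 and 0 in the other 4, against 13.5, 54.7, 14.4 and 0 CPM in sham BAT. Their adjusted p values were 0.0405 and 0.0497, and each call was lost without any one of 8 of the 9 libraries. The exception was sham BAT replicate 26, without which both were still called.

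Mb, the oxygen-binding myoglobin of heart and slow muscle, was the skeletal list member that was higher, with 56.6, 106, 145, 146 and 172 CPM in sham above, against 16.4, 21.9, 14.04 and 22.3 CPM in sham BAT (log2 difference 2.63 ± 0.41 SE, adjusted p 0.00431). The groups did not overlap. In sham below, Mb had 31.4 to 136 CPM and was also called higher than in sham BAT (log2 difference 2.10 ± 0.40 SE, adjusted p 0.0255). Unlike the heart genes listed above for the test of sham above minus sham below, Mb was not called there. Tnnc1 and Cryab were not called in that edgeR test either (adjusted p 0.46 and 0.127). Acta1, the skeletal alpha actin, was not called: it had 0.207 to 5.01 CPM in sham above, against 109, 233, 213 and 0 CPM in sham BAT (adjusted p 0.334). How much muscle tissue in a dissected piece adds to these differences was not tested.

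The called mesothelial genes separated every sham above library from every sham BAT library. Of 20 list members tested, 7 were called higher and 0 lower, 18 had a fitted difference above 0, and the median was 2.21 against -0.02 over all genes. Msln, which encodes mesothelin, had 31.6, 18.8, 43.9, 37.7 and 29.6 CPM in sham above, against 0, 0.264, 0 and 0 CPM in sham BAT. Its log2 difference was 8.43 ± 0.72 (SE), with the lowest adjusted p of the comparison, 8.83e-05. Without sham BAT replicate 22, the 1 BAT library with a count, the fitted value was 12.15 (adjusted p 0.000798). Wt1, a transcription factor of mesothelium and epicardium, had 4.34, 2.76, 6.001, 4.74 and 4.05 CPM in sham above and no count in any sham BAT library, at least 118.1-fold higher. Unlike the heart genes, sham above replicate 20 was not the lowest library for either gene.

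Surface proteins of mesothelium gave the same picture. Upk3b, an uroplakin, had 9.46, 5.30, 14.2, 9.48 and 7.45 CPM in sham above, against 0.0584, 0.189, 0 and 0 CPM in sham BAT. Lrrn4, a leucine-rich repeat membrane protein, had 5.58, 6.76, 13.9, 9.31 and 9.95 CPM in sham above, against 0.0584, 0.151, 0.0571 and 0.0516 CPM in sham BAT. Both differed by more than 6 on the log2 scale, at 6.82 ± 0.69 and 6.57 ± 0.64 (SE), each with an adjusted p of 0.000138. Without sham BAT replicate 22 the value of Upk3b was 8.33 (adjusted p 0.000798). Upk1b, another uroplakin, had 2.54 to 7.40 CPM in sham above and at most 0.234 CPM in sham BAT, and Rspo1, an enhancer of Wnt signalling, had 3.89 to 9.37 CPM in sham above and 0.993 to 1.85 CPM in sham BAT. Keratins of the same list were not called: Krt19 had 1.746 to 4.76 CPM in sham above and 0 to 0.792 CPM in sham BAT (adjusted p 0.0932), and Krt18 had an adjusted p of 0.0584. Summed over the list in CPM, the groups met, with 199 to 313 CPM in sham above and 99.2 to 201 CPM in sham BAT. Replicate 22 was the highest of sham BAT and the lowest of sham above. CPM leaves out the TMM scaling of the test, whose factors for replicate 22 were 1.18 in sham BAT and 1.072 in sham above. Divided by the factors of each library, the summed levels no longer met.

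Several called genes outside the list are known from epithelia, and these were chosen after their values were seen. Dsp, the desmosome protein desmoplakin of heart and epithelia, had 2.59, 18.0, 19.9, 21.1 and 35.5 CPM in sham above, against 0.584, 1.244, 0.856 and 0.362 CPM in sham BAT. Cgn, the tight junction protein cingulin, had 3.04 to 7.40 CPM in sham above and 0 to 0.207 CPM in sham BAT. Krt13, a keratin, had 0.225 to 1.14 CPM in sham above and no count in sham BAT, at least 15.27-fold higher, and its call was lost without any one of 6 libraries. The mesothelial genes were also present below the ligature, where Msln had 9.03 to 43.9 CPM, and Msln, Wt1, Upk3b, Upk1b, Lrrn4, Nkain4 and Rspo1 were not called between sham above and sham below. The part of mesothelium carried along in a dissected piece was not tested.

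The start regions of called heart and mesothelial genes are shown because members of each set moved together, and the printed ones are those that hold CATTCC, the core of the M-CAT element bound by TEAD factors. RefSeq promoters of the build GRCr8, 250 bases before to 50 after each gene's start, were searched for CATTCC on both strands. The motif was found in 2 of 10 called cardiac list genes with an entry and in 2 of 5 called mesothelial list genes, against 14.2% of all 33469 promoters. Over all called genes with an entry it was found in 7 of 43 higher genes (16.3%) and 3 of 22 lower genes (13.6%), shares near that of all promoters. A called gene counted when any of its entries held the motif, while the share of all promoters is per entry. Genes with several entries thus had more chances to count, and the shares are not strictly alike. The sequences read 5′ to 3′ on the gene's strand, with the motif in capitals. The Tnnt2 entry, 1 of 2 for that gene, lies at chr13:49818873-49819172 on the plus strand, and the motif starts at -83 relative to the gene's start. Myh6 lies at chr15:32411648-32411947 on the minus strand, with the motif at -23. Upk1b lies at chr11:75459131-75459430 on the plus strand, with the motif at -178, and Lrrn4 at chr3:140603937-140604236 on the minus strand, with the motif at -214.
Tnnt2: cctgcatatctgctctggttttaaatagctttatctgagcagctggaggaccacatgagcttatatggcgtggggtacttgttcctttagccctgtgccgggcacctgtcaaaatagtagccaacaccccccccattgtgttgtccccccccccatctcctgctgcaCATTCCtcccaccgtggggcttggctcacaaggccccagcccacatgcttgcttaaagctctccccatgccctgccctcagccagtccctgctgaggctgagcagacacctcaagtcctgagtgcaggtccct
Myh6: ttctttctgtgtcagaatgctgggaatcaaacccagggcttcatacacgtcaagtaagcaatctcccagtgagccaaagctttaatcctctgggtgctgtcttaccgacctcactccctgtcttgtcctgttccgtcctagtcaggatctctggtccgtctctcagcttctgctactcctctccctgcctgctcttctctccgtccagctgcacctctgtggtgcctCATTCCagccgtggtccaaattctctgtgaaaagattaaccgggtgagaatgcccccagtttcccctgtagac
Upk1b: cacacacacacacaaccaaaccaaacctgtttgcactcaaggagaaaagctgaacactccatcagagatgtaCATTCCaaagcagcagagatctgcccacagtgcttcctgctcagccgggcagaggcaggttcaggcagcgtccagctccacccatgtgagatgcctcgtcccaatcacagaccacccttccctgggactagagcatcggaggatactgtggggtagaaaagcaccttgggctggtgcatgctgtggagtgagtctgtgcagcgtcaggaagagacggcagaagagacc
Lrrn4: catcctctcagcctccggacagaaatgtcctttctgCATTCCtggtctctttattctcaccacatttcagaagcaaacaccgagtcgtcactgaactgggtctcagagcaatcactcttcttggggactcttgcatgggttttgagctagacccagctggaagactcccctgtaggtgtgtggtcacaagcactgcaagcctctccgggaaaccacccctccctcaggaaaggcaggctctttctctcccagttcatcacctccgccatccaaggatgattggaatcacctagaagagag

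Transcription factors that pattern the embryo differed in both directions. Of 51 list members tested, 5 were called higher (Wt1, Gata4, Tcf21, Foxp2 and Foxc1) and 4 lower (Zic1, Zic4, Irx5 and Tbx15) in sham above. Zic1, a zinc finger factor of dorsal mesoderm and a marker of interscapular brown fat, had no count in any sham above library, against 5.67, 2.34, 6.91 and 5.68 CPM in sham BAT. It was at least 150.4-fold lower in sham above. Zic4, which lies beside Zic1 on chromosome 8, had 0.106 CPM in sham above replicate 28 and 0 in the other 4, against 2.40, 0.829, 2.06 and 1.81 CPM in sham BAT, a ratio of 0.0129 with a 95% exact binomial interval of 0.00155 to 0.0475 for counting error only.

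Irx5, an Iroquois homeobox factor, had 0.207, 0.113, 0.0517, 0 and 0 CPM in sham above, against 2.63, 2.53, 2.80 and 2.58 CPM in sham BAT (log2 difference -5.15 ± 0.70 SE, adjusted p 0.00135, and -5.92 without sham above replicate 20). Tbx15, a T-box factor that shapes adipocyte type and dorsal skin in mice, had 1.19, 0.225, 0.362, 0.892 and 0.532 CPM in sham above, against 4.56, 6.18, 2.91 and 3.67 CPM in sham BAT. Dmrt2, a factor of dermomyotome development that was outside the list, had 0.155, 0, 0.0517, 0.0558 and 0.213 CPM in sham above, against 3.51, 10.9, 5.59 and 5.84 CPM in sham BAT (log2 difference -6.05 ± 0.61 SE, adjusted p 0.000138). The groups did not overlap for any of these genes. En1, the engrailed homeobox factor of the same list, had 0.0563 to 0.692 CPM in sham above and 2.56 to 4.68 CPM in sham BAT, and its adjusted p of 0.0542 missed the threshold.

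Gata4, a zinc finger factor of heart, epicardium and lateral mesoderm, had 1.19, 1.63, 2.69, 3.40 and 3.78 CPM in sham above and no count in sham BAT, at least 68-fold higher. Tcf21, a factor of epicardial and visceral stromal cells, had 1.40, 1.47, 1.71, 1.73 and 0.426 CPM in sham above, against 0.0377 CPM in sham BAT replicate 22 and 0 in the other 3. Foxp2, a forkhead factor, had 9.87, 9.07, 9.16, 10.5 and 12.0 CPM in sham above, against 0.993, 0.980, 0.457 and 1.70 CPM in sham BAT (log2 difference 3.15 ± 0.35 SE, adjusted p 0.000259). It varied little among the sham above libraries, replicate 20 included. Foxc1, another forkhead factor, averaged 6.72 ± 1.13 CPM in sham above and 1.55 ± 1.01 CPM in sham BAT, and was named after its values were seen.

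Hox genes, which record position along the body axis, gave 1 called gene. Hoxd8, of 16 tested, had 3.83, 4.45, 2.59, 4.07 and 2.501 CPM in sham above, against 10.99, 9.46, 10.9 and 13.1 CPM in sham BAT (log2 difference -1.82 ± 0.21 SE, adjusted p 0.000324). Hoxd3, Hoxd4 and Hoxd9 had fitted differences of -2.12, -1.18 and -1.25 without being called. Hoxb2, Hoxb3 and Hoxb4 had fitted differences of 1.28, 1.34 and 0.85 and did not overlap between groups, but their adjusted p values were 0.321, 0.0715 and 0.0853. Hoxa5 was listed at 0 in all 9 libraries, and Hoxc9 was too low to be tested. The Hoxa5 entry lies on a scaffold outside the numbered chromosomes, so its value of 0 does not show that the gene is silent.

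**Figure D3:**
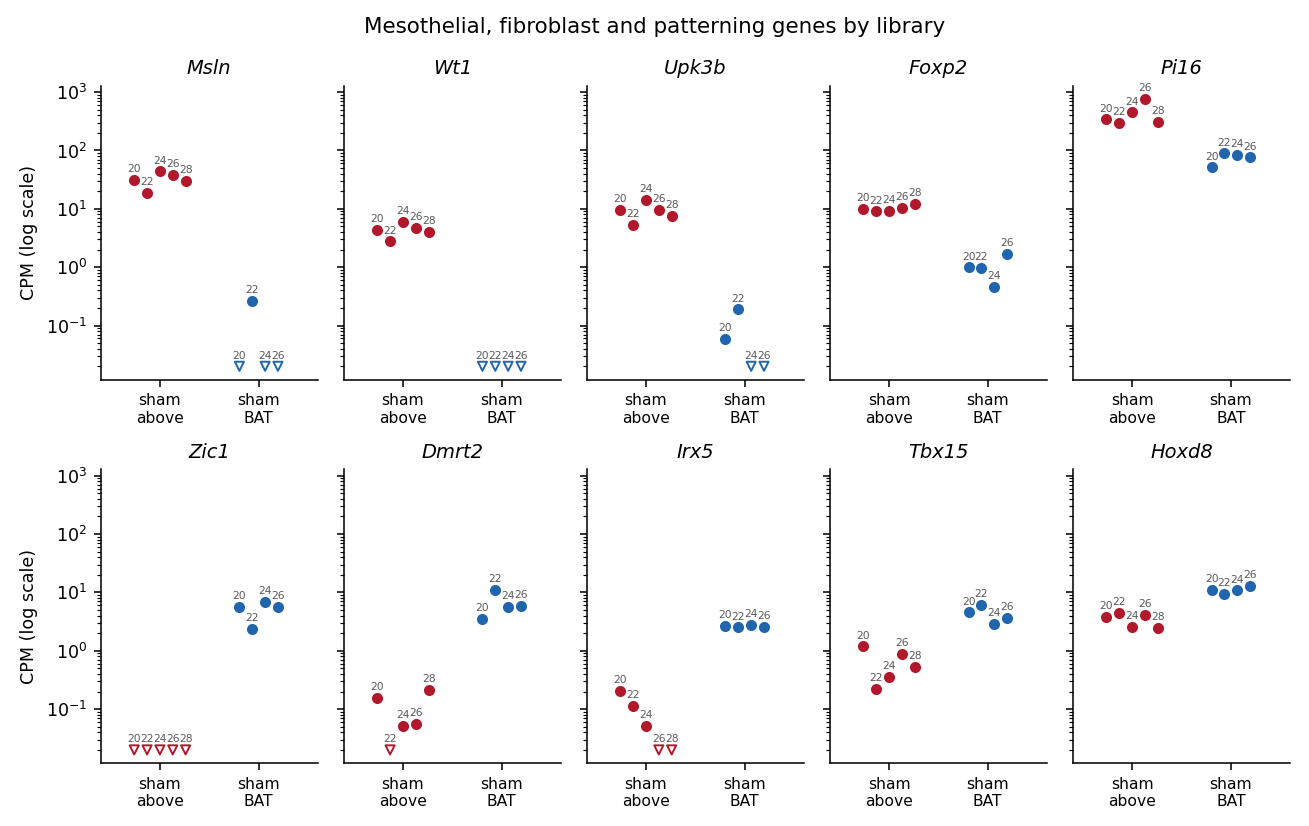
CPM on a log scale of 5 genes that were higher (upper row) and 5 that were lower (lower row) in 5 sham above libraries (red, left) than in 4 sham BAT libraries (blue, right), with title numbers at the points and open triangles at the bottom for libraries with no count. In all 10 panels the sham above libraries lie on 1 side of every sham BAT library.

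Stromal and matrix genes gave a few called members of each sign. Pi16, a peptidase inhibitor that marks adventitial fibroblast progenitors, had 339, 297, 448, 755 and 306 CPM in sham above, against 51.3, 89.4, 83.5 and 75.9 CPM in sham BAT (log2 difference 2.41 ± 0.36 SE, adjusted p 0.00332). It was the 1 called gene of 28 on the fibroblast list, whose median was -0.12. Per length, its level was 294 FPKM in sham above and 51.3 FPKM in sham BAT. Postn, the matricellular protein periostin, had 319, 193, 263, 259 and 261 CPM in sham above, against 606, 706, 545 and 559 CPM in sham BAT (log2 difference -1.34 ± 0.16 SE, adjusted p 0.000375). The groups did not overlap for either gene, and leaving out any single library kept both calls.

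Of 43 fibrillar collagen and elastic fibre genes tested, 2 were called higher and 1, Postn, lower, with a median of -0.21. Fmod, the collagen-binding proteoglycan fibromodulin, had 15.7, 8.23, 16.7, 22.0 and 15.5 CPM in sham above, against 0.760, 2.71, 1.54 and 0.878 CPM in sham BAT (log2 difference 3.32 ± 0.43 SE, adjusted p 0.000929). Ctgf, a matricellular growth factor, had 12.3 to 24.5 CPM in sham above and 1.86 to 9.50 CPM in sham BAT, and its call was lost without any one of 5 libraries. Plod2, a lysyl hydroxylase that modifies collagen for crosslinking, had 11.01, 9.01, 10.04, 21.2 and 11.3 CPM in sham above, against 1.40, 1.51, 1.14 and 0.878 CPM in sham BAT (log2 difference 3.21 ± 0.34 SE, adjusted p 0.000202). Col1a1 was not called (log2 difference -1.63 ± 0.48 SE, adjusted p 0.234): it had 680 to 1249 CPM in sham above, against 835, 5979, 3663 and 692 CPM in sham BAT, where replicates 22 and 24 were high. Col3a1 had a fitted difference of -0.99 with an adjusted p of 0.329.

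Among retinoid and Wnt genes a few were called. Aldh1a3, an enzyme that makes retinoic acid, had 19.7, 23.7, 27.3, 49.7 and 23.04 CPM in sham above, against 5.32, 9.57, 9.48 and 6.92 CPM in sham BAT (log2 difference 1.76 ± 0.28 SE, adjusted p 0.00551). Of 19 retinoid genes tested, 2 were called higher and 0 lower, with a median of 0.05. Dkk3, a member of the dickkopf family, had 7.39, 7.78, 13.1, 20.1 and 21.7 CPM in sham above, against 1.753, 3.73, 1.77 and 1.86 CPM in sham BAT, and with Rspo1 it made 2 of 30 Wnt genes called, with a median of 0.32. Gpc3, a glypican named after its values were seen, had 13.97 to 37.2 CPM in sham above and 1.40 to 9.31 CPM in sham BAT. Wfdc21, a whey acidic protein family member also named after its values were seen, had 4.56 to 15.6 CPM in sham above and 0.113 CPM in 1 sham BAT library. Hamp, the iron hormone hepcidin, had 0.827, 3.04, 4.97, 5.85 and 17.9 CPM in sham above and at most 0.0584 CPM in sham BAT, and its call was lost without any one of the 4 sham BAT libraries.

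Several further called genes lay outside the rule for naming genes and are given after their values were seen. Myrf, a membrane-bound transcription factor, had 3.49 to 6.87 CPM in sham above and 0.468 to 1.62 CPM in sham BAT. Cdh11, a cadherin of mesenchymal cells, had 8.85 to 13.8 CPM in sham above and 1.70 to 5.28 CPM in sham BAT. Lbp, the lipopolysaccharide-binding protein, had 6.37 to 15.2 CPM in sham above and 1.29 to 3.47 CPM in sham BAT. The groups did not overlap for any of the 3, but the call was lost without any one of 7 libraries for Cdh11 and of 2 for Lbp. Ezr, the membrane linker ezrin, showed the smallest difference of the 64, at 0.85 on the log2 scale, with 32.3 to 43.4 CPM in sham above and 13.4 to 23.8 CPM in sham BAT, and its call was lost without any one of 7 libraries. Evpl, Scel, Clic3, Bicdl1, Tcf23, Nrgn, Fgf12, P4ha3, Slc26a3, Egfl6, Igsf1, Adamts8, Tm4sf4 and Chst4 were also called higher, and each was under 7 CPM in every library. An entry with no assigned name, AABR07069371.1, had 5.18 to 11.2 CPM in sham above and at most 0.117 CPM in sham BAT.

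Other genes were called lower. Il1r2, the decoy receptor that binds interleukin-1 without signalling, had 0.414, 0.113, 0.414, 0.502 and 1.06 CPM in sham above, against 4.62, 10.7, 4.68 and 8.31 CPM in sham BAT (log2 difference -3.89 ± 0.52 SE, adjusted p 0.00122). Mmp27, a matrix metalloproteinase, had 0.160 to 0.958 CPM in sham above and 2.98 to 14.3 CPM in sham BAT. Acer2, an alkaline ceramidase of the Golgi, had 11.7, 12.2, 9.78, 14.7 and 11.9 CPM in sham above, against 24.4, 31.6, 26.2 and 23.9 CPM in sham BAT (log2 difference -1.26 ± 0.14 SE, adjusted p 0.000311). Angpt4, an angiopoietin, averaged 6.22 ± 1.241 CPM in sham above and 16.95 ± 10.7 CPM in sham BAT. Dpep1, a membrane dipeptidase, averaged 2.61 ± 0.57 CPM in sham above and 7.95 ± 3.05 CPM in sham BAT.

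Pdgfd, a platelet-derived growth factor, averaged 8.17 ± 3.16 CPM in sham above and 17.8 ± 2.64 CPM in sham BAT, and its call was lost without any one of 8 libraries. Art3, an ADP-ribosyltransferase family member, had 31.8 to 51.7 CPM in sham above and 62.6 to 110.0 CPM in sham BAT. St3gal1, a sialyltransferase, had 36.4 to 57.3 CPM in sham above and 58.1 to 103 CPM in sham BAT. Ces2g and Ces2h, carboxylesterases, were also lower, with means of 1.49 and 0.574 CPM in sham above and 5.43 and 2.34 CPM in sham BAT. Reads of such closely related genes can be split between copies by the counting, so their values are uncertain. Fgl2, a secreted fibrinogen-like immune regulator and the 1 called gene of 10 lymphatic list genes, overlapped between groups, with 39.4 to 67.6 CPM in sham above and 64.7 to 155.5 CPM in sham BAT. The call of Fgl2 was lost without any one of 7 libraries, that of Ces2g of 5, that of St3gal1 of 4 and that of Ces2h of 2.

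Gabrg1, Tas1r1, Car6, Rhbdl1, Slco2b1, Epb41l4b, Pla2g15 and Zdbf2 made up the rest of the 28 lower genes, and each of these calls was lost without any one of 2 or more libraries. Of these, Pla2g15, a lysosomal phospholipase, was the most abundant, with 52.5 to 80.9 CPM in sham above and 80.9 to 104 CPM in sham BAT.

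The brown fat programme itself gave 1 called gene, Zic1, of 25 tested, with a list median of 0.18. Ucp1 had 2504, 1719, 2084, 1117 and 1677 CPM in sham above, against 1156, 1361, 1343 and 1580 CPM in sham BAT, and the groups overlapped (log2 difference 0.29 ± 0.24 SE, adjusted p 0.873). Cidea, a lipid droplet protein of brown fat, had 1331 to 1700 CPM in sham above and 1406 to 2373 CPM in sham BAT (log2 difference -0.56 ± 0.21 SE, adjusted p 0.447). Prdm16, a regulator of brown fat fate, averaged 27.01 ± 8.09 CPM in sham above and 25.6 ± 10.8 CPM in sham BAT. Lhx8, a homeobox factor used as a brown fat marker, did not overlap between groups, with 6.05 to 11.9 CPM in sham above and 3.43 to 5.68 CPM in sham BAT, but its adjusted p was 0.285. Of the markers meant to define brown adipocytes, Elovl3 was listed at 0 in all 9 libraries and Cox7a1 was at most 0.373 CPM in sham above and 0.207 CPM in sham BAT.

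Of 22 genes on the white adipocyte list, Tcf21, described above, was the 1 called, and the list's median was -0.21. Adipoq, Lep and Agt were not called. Adipoq, the adiponectin gene, averaged 1517 ± 203 CPM in sham above and 1630 ± 67.9 CPM in sham BAT. Lep, the gene of the satiety hormone leptin, had 109, 134, 57.7, 171 and 189 CPM in sham above, against 203, 304, 212 and 250.8 CPM in sham BAT. Every sham above library was below every sham BAT library, but the difference of -1.003 ± 0.33 (SE) had an adjusted p of 0.329. Agt, the angiotensinogen gene, averaged 497 ± 217 CPM in sham above and 356 ± 72.3 CPM in sham BAT. Of 10 renin-angiotensin genes, 0 were called, where 0.451% of all genes tested were called higher and 0.197% lower.

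Nuclear genes of the respiratory chain gave no called gene among 59 tested, yet 49 had a fitted difference above 0, with a median of 0.21. Their summed level was 37313, 34607, 31146, 30924 and 33936 CPM in sham above, against 25593, 30232, 23348 and 29666 CPM in sham BAT, and the groups did not overlap in CPM. CPM leaves out the TMM scaling of the test, whose factors were 0.9785 to 1.072 in sham above and 0.8485 to 1.18 in sham BAT. Divided by these factors, the summed levels overlapped, with replicate 26 of sham BAT (factor 0.9233) above replicate 26 of sham above (factor 1.071). In the coarcted libraries the median of the list was -0.29. The 13 genes of the mitochondrial genome had a median of -0.29 in the shams, their summed level overlapped between groups, and 0 were called. No gene of the lists for fatty acid oxidation (27 tested), fatty acid and triglyceride synthesis (24), lipolysis (20) or glycolysis (30) was called. With 0.451% of all genes tested called higher and 0.197% lower, a lack of calls in lists of such sizes says little.

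Markers of other cells were compared by list. None of 25 endothelial, 20 macrophage, 16 T cell, 9 B cell, 16 Schwann cell or 30 interferon-stimulated genes was called. Over all genes tested, 0.451% were called higher and 0.197% lower, so lists of these sizes would seldom hold a called gene. The lack of calls does not show that the tissues are alike in these cells. Haemoglobin transcripts were uneven: Hbb had 747, 127, 1247, 1156 and 379 CPM in sham above, against 232, 117, 237 and 156 CPM in sham BAT (log2 difference 1.82 ± 0.55 SE, adjusted p 0.249), with replicate 22 of sham above within the range of BAT. Immediate early genes, which are induced within minutes of a stimulus, summed to 1423, 547, 926, 587 and 520 CPM in sham above, against 636, 729, 781 and 454 CPM in sham BAT. Sham above replicates 20 and 24 were the highest, and without these 2 libraries 60 genes were higher and 14 lower.

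**Figure D4:**
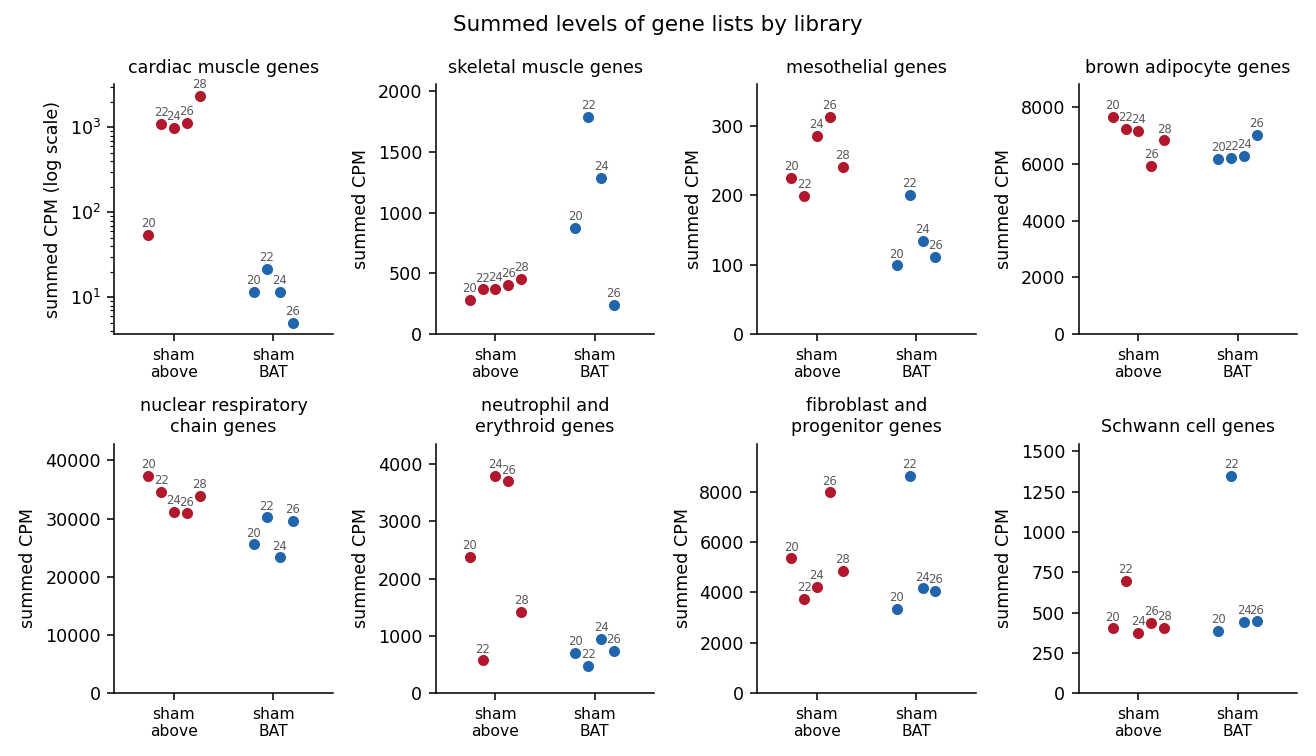
Summed CPM of 8 gene lists in 5 sham above libraries (red, left) and 4 sham BAT libraries (blue, right), with title numbers at the points and a log axis for the cardiac list only. In CPM, without the TMM scaling of the test, the groups are apart for the cardiac and nuclear respiratory chain lists and overlap for the other 6. Among these 6, sham BAT replicate 22 is the highest for skeletal muscle, fibroblast and Schwann cell genes.

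The same contrast in coarcted rats used none of the sham libraries, with 6 libraries of coarct above and 5 of coarct BAT. There 131 genes were higher (0.918% of 14276 tested) and 52 lower (0.364%). Of the 64 genes higher in sham above, 63 could be tested in the coarcted rats, all 63 had a difference above 0 and 52 were called higher. Of the 28 lower genes, 27 could be tested, all 27 had a difference below 0 and 11 were called lower. The shared genes make up 81.2% of the sham set and 39.7% of the coarct set on the higher side, and 39.3% and 21.2% on the lower side. Tcf21 and Zdbf2 were the 2 genes that did not pass the filter on low counts there.

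Zic1 had 0 to 0.0994 CPM in coarct above and 4.39 to 6.56 CPM in coarct BAT, and Wt1 had 1.74 to 6.19 CPM in coarct above and 0 to 0.0616 CPM in coarct BAT. Neither pair of ranges overlapped. Tnnt2 ran over 0.168 to 226 CPM in coarct above, so heart transcripts were near absent from the lowest of those libraries, against 0 to 0.0987 CPM in coarct BAT. Postn was not called in the coarcted rats, where the difference was -0.52 ± 0.20 (SE, adjusted p 0.223), and Pvalb, Actn3 and Mb were not called either. A test of whether the difference between above and BAT itself depended on surgery called 0 of 15018 genes with edgeR and 0 with DESeq2, with 833 genes (5.55%) at an unadjusted p under 0.05 in edgeR, so no gene can be said to differ with surgery.

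**Figure D5:**
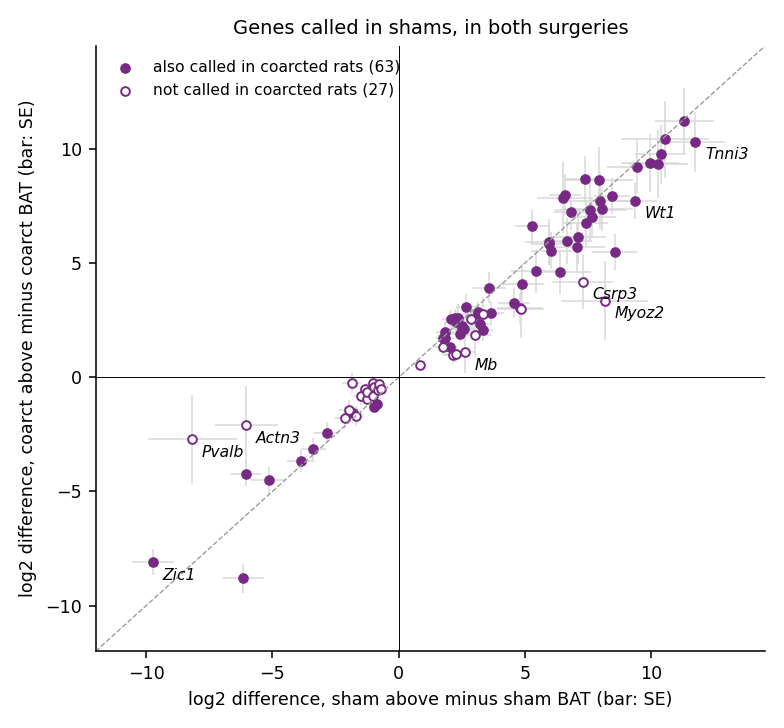
Log2 difference of the 90 called genes that could be tested in both, sham above minus sham BAT on the horizontal axis and coarct above minus coarct BAT on the vertical axis, with bars for the SE and a dashed line of equality. All 90 points lie in the quadrants of like sign, 63 of them also called in coarcted rats (filled).

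The sham libraries from below the ligature were set against the same 4 BAT libraries, so the calls of the comparisons are not independent of each other. Sham below minus sham BAT called 54 genes higher (0.381% of those tested) and 61 lower (0.43%) at an adjusted p under 0.05. Of the genes called in sham above, 32 of the 64 higher and 22 of the 28 lower were also called here with the same sign. Of the 28 lower genes, 0 were called between sham above and sham below. Zic1 had no count in sham below. Foxp2 had 6.23 to 14.1 CPM and Postn 222 to 309 CPM in the 5 sham below libraries. Pi16, Aldh1a3 and Dkk3 were called above the ligature and not below it, with 104 to 293 CPM of Pi16 in sham below, but none of the 3 was called between sham above and sham below.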

How the data were processed

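RNA of 31 libraries was sequenced in bulk, and the 5 sham above and 4 sham BAT libraries were compared. STAR 2.5, HTSeq 0.6.1 and DESeq2 1.24.0 are named in the submitters' processing notes, and the genome build is not given in the sources used here. The authors deposited counts per gene for 32883 entries, of which 8811 had no count, with FPKM values beside them. Of the gene names, 25 had become dates and were restored. CPM was computed from the deposited counts.

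The main test was edgeR 4.0.16 (R 4.3.3), quasi-likelihood with TMM scaling and filterByExpr, fitted to all 14 sham libraries in 3 groups, with Benjamini-Hochberg adjustment. Alternatives used DESeq2 1.42.0, limma 3.58.1 on log2(deposited FPKM + 1), other filters and libraries left out. On simulated data of 14027 genes for this comparison, 43 of 100 genes changed by 1 and 84 of 100 changed by 2 on the log2 scale were found, with 4 false calls.

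Named genes were the 10 largest differences, the 10 most abundant and the 10 lowest p-values in each direction, up to 3 called genes per list, and fixed genes, of which 31 of 32 were found. The rule names 50 of the 92 called genes. The other 42, where the text names them, were chosen after their values were seen. The 43 gene lists and the members were chosen with earlier results of these data known. Results of some genes are not reported here.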

Additional observations from a re-analysis of the deposited data

Results flagged for a closer look

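A library was marked where it lay far from the others of its group of 4 or 5 relative to that group's range. This held for 45 of 303 groups of values, and chance gives about 1 in 20. That rate does not hold where 1 library had a count and the others had 0, since such a library lies apart by its count alone. Egfl6 in sham BAT, with 1 count over the group, was marked in this way. No explanation was tested for any of them. Values are in CPM, the marked library's first and then the value or range of the other libraries of its group.

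Replicate 20 of sham above stood out with Pvalb at 0.3101 against 0 and Cidea at 1700 against 1331 to 1435. Replicate 22 of sham above stood out with Actn3 at 1.352 against 0.6725 to 0.8363. Replicate 24 of sham above stood out with Bicdl1 at 6.259 against 2.197 to 3.14. Replicate 26 of sham above stood out with Ctgf at 24.53 against 12.28 to 15.54, Plod2 at 21.24 against 9.014 to 11.28 and Aldh1a3 at 49.73 against 19.69 to 27.26. The same library had Pdgfra at 83.74 against 36.68 to 48.96. Replicate 28 of sham above stood out with Zic4 at 0.1064 against 0, Tcf21 at 0.4258 against 1.396 to 1.728 and Hoxc8 at 5.375 against 0 to 1.551. The same library had Hoxc9 at 0.2661 against 0 to 0.05634. Replicate 20 of sham BAT stood out with Upk1b at 0.2338 against 0 to 0.03769 and Myl4 at 0.7597 against 0.2066 to 0.2638. Replicate 22 of sham BAT stood out with Egfl6 at 0.03769 against 0, Angpt4 at 32.98 against 11 to 12.21 and Adamts8 at 0.07538 against 0. The same library had Igsf1 at 0.2638 against 0, Mybpc3 at 0 against 0.05164 to 0.05844 and Fgl2 at 155.5 against 64.7 to 70.59. It also had Casq2 at 3.317 against 2.582 to 2.63, Dkk3 at 3.732 against 1.753 to 1.859 and Tm4sf4 at 0.03769 against 0. It further had Tcf21 at 0.03769 against 0, Tnni3 at 0.03769 against 0 and Msln at 0.2638 against 0. To these came Tnni3k at 0.03769 against 0, Wfdc21 at 0.1131 against 0 and Lrrn4 at 0.1508 against 0.05164 to 0.05844. Last in this library came Pdgfra at 76.97 against 33.87 to 38.28 and C1qa at 104.1 against 28.94 to 37.85. Replicate 24 of sham BAT stood out with Myoz2 at 0.1712 against 0 and Scel at 0.05708 against 0. Replicate 26 of sham BAT stood out with Fgf12 at 0.8262 against 0.3392 to 0.3996.

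Replicate 22 of sham above stood out in summed CPM with Schwann cell genes at 694.8 against 376.5 to 437.9. Replicate 26 of sham above stood out in summed CPM with lymphatic endothelial genes at 257.6 against 98.29 to 121.7 and T cell genes at 65.06 against 45.69 to 51.17. Replicate 22 of sham BAT stood out in summed CPM with lymphatic endothelial genes at 291.4 against 106.2 to 115.6, fibroblast and progenitor genes at 8612 against 3355 to 4160 and macrophage genes at 1123 against 414.6 to 530.4. The same library had B cell and plasma cell genes at 18.85 against 9.019 to 10.43, MHC class II genes at 726.2 against 300.1 to 328.3 and Schwann cell genes at 1346 against 385.6 to 445. It also had cell cycle genes at 66.68 against 41.88 to 44.88. Replicate 26 of sham BAT stood out in summed CPM with brown adipocyte genes at 7038 against 6180 to 6299.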

How the results depend on the processing

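No called gene changed sign in any setting that tested it. Of 92, 55 were called in every fit without a single library in which they were tested. The filter on low counts dropped some genes from some settings. Among the 55, Tcf21, Tnni3k and Mybphl were tested in 17, 17 and 19 of 22 settings, so untested fits are not counted as lost calls. Every setting drew on the libraries that gave the calls, so a kept sign adds no support. Sham counts (64 higher, 28 lower) were 151 and 81 with DESeq2's Wald test, 39 and 7 against a minimum log2 difference of 1, 0 and 1 within libraries with many 12S reads, 39 and 9 within those with few, 55 and 16 with limma, and 60 and 14 without sham above replicates 20 and 24, an alternative chosen after seeing the data. Leaving out single libraries gave 44 to 76 higher and 15 to 28 lower genes, with 15 without sham BAT 20, 16 without sham above 22, 24 or 28 and 17 without sham BAT 24. Coarct counts (131 higher, 52 lower) were 295 and 212 with DESeq2, 65 and 27 with only both groups in the fit, and 67 to 615 and 21 to 298 without single libraries, highest without coarct BAT 27. The causes were not tested. Around group means, sham above and sham BAT libraries of the same title number had correlations of -0.0845, 0.208, -0.0894 and 0.018 for 20, 22, 24 and 26. Those of different numbers ran over -0.198 to 0.248, so these values cannot show whether a number is 1 rat. The replicate block gave 70 higher and 40 lower genes, among them 57 of the 64 and 20 of the 28. With a gene length offset added it gave 81 and 44, and in coarct the block gave 111 lower genes.

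Some genes of the fixed list that were not called changed sign. With limma, Prdm16 was at 0.101 and Mki67 at 0.038. With the length offset, Prdm16 was at 0.022, Cd68 at -0.048, C1qa at -0.076 and Mki67 at 0.160. With the block, Mki67 was at 0.056, and with block and length Prdm16 was at 0.014 and Mki67 at 0.215. With a term for 12S reads C1qa was at -0.006. Within many 12S reads Retn was at 0.306 and Adrb3 at 0.101. Within few, Prdm16 was at 0.210, Acta2 at -0.160, Pdgfra at -0.330, Cd68 at -0.535, C1qa at -0.616, Cd3e at -0.054 and Mki67 at 0.255. Without sham above 20 and 24, Prdm16 was at 0.214 and C1qa at -0.045. Without single libraries Prdm16 ran over -0.211 to 0.284, Adrb3 over -0.274 to 0.022, Pdgfra over -0.218 to 0.248, Cd68 over -0.100 to 0.225, C1qa over -0.170 to 0.416 and Mki67 over -0.120 to 0.305.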

Other observations

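Ppara, a nuclear receptor that drives fatty acid oxidation, had 13.3, 297, 157, 212 and 202 CPM in sham above, against 109, 199, 39.1 and 229 CPM in sham BAT. Ppargc1b, a coactivator of mitochondrial genes, had 9.56, 172, 110.0, 132 and 168 CPM in sham above, against 73.9, 119, 19.9 and 122 CPM in sham BAT. Both genes were lowest in sham above replicate 20 and next lowest in sham BAT replicate 24, and neither was called between the groups.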
